A study of Mus musculus with 3 samples.

Results

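Melanoblasts and melanocytes, the pigment cell lineage of skin, were chosen by rule from single-cell RNA sequencing of mouse back skin. A cell was a member when at least 3 of the 7 genes Pmel, Dct, Mlana, Tyr, Tyrp1, Mitf and Slc45a2 had a UMI, a counted RNA molecule, and when Cdh5 of endothelial cells and Ptprc of leukocytes were both at 0. The rule took 225 of 16235 cells. It took 56 of 5962 cells at E13.5 (0.939%, exact binomial 95% interval 0.710 to 1.22), 51 of 5208 at E16.5 (0.979%, 0.730 to 1.29) and 118 of 5065 at P0 (2.33%, 1.93 to 2.78). A further 3, 5 and 6 cells had 3 or more markers and a UMI of Cdh5 or Ptprc. They were left out of the members and stayed among the other cells of their library. The libraries held back skin of male C57BL/6 mice at 2 embryonic stages (E13.5 and E16.5, named by the days of gestation) and on the day of birth (P0, also labelled 0dpp), with no other genotype or treatment. Skin of several animals was pooled into 1 library per stage. E13.5 and E16.5 skin was digested with 0.25% trypsin for 5 min and P0 skin with collagenase IV at 2 mg/ml for 30 min, all at 37 °C. Stage, library and, between P0 and the embryos, digestion cannot be told apart, so no test was run and every interval covers counting error only.

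The libraries held 53334740, 66239195 and 46599806 UMIs. The members held 513863, 668509 and 2029448 of them, with a median of 6735, 10801 and 10000 UMIs per cell, against 7066.5, 11021 and 6797 over all cells. Any 2 libraries shared 32 to 44 cell barcodes, and no shared barcode belonged to a member in both. Levels below are CPM, the UMIs of a gene per 1000000 UMIs summed over the cells of a group, and 3 UMIs corresponded to 5.84, 4.49 and 1.48 CPM in the members of the 3 stages.

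Melanoblasts come from the neural crest, partly by way of Schwann cell precursors along nerves. They migrate through the dermis into the epidermis and then into the growing hair follicles, where they mature into melanocytes that pass pigment to the hair. Kit and Ednrb are the receptors on which their survival and spread depend, Sox10 and Pax3 act upstream of Mitf, and Mitf is the transcription factor that switches on the pigment genes. Tyr, Tyrp1 and Dct encode the enzymes of melanin synthesis. Pmel forms the fibrils of the melanosome, the organelle that holds the pigment, Mlana is needed for its maturation, and Slc45a2 is one of its transporters.

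The upstream sequence of Tyr, Tyrp1 and Dct is shown because the extended E-box TCATGTG, which Mitf is known to bind, lies in each of these windows and the genes differed in their RNA by stage. The stretches are the 250 bases before the start in the RefSeq promoter table (build GRCm38.p6), written 5′ to 3′ on the strand of the gene, with TCATGTG or its reverse complement CACATGA in capitals.
Tyr, chr7:87493513-87493762, minus strand: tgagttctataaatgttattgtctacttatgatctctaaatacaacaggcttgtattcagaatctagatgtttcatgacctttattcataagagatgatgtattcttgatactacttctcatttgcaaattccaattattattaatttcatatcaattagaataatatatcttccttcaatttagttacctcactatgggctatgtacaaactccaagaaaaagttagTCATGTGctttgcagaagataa
Tyrp1, chr4:80833963-80834212, plus strand: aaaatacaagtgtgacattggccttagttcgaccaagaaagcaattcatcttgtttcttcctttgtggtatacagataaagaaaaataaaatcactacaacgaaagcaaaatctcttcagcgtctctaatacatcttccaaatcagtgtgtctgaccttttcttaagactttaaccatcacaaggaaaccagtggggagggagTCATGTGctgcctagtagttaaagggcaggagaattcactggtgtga
Dct, chr14:118052247-118052496, minus strand: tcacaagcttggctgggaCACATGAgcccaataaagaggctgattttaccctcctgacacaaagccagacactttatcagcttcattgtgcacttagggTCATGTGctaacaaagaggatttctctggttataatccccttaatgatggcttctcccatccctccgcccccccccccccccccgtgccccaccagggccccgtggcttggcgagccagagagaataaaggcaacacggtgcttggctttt
The motif ended 16 bases before the start of Tyr and 41 bases before that of Tyrp1 in the RefSeq table. For Tyrp1 that start lies downstream of the GENCODE gene start given below, so that the motif falls inside the GENCODE gene. In Dct, TCATGTG ended 145 bases before the start and CACATGA 226 bases before it. The 7-base motif was found on either strand in 3.25% of 32851 promoters of the same length. Its 6-base core CATGTG, which is contained in it, was found in 12.3% of them. The table had an entry for 4 of the 7 rule genes, the fourth being Mitf, whose 3 windows held no match. A match describes letters only and no binding was measured. The 3 genes with sequences lie on chromosome 7 (Tyr, 87424771 to 87493512), chromosome 4 (Tyrp1, 80834123 to 80851719) and chromosome 14 (Dct, 118012790 to 118052244) in the GENCODE annotation of GRCm38.

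The markers stood apart from the rest of the library more clearly at E16.5 and P0 than at E13.5. At E16.5 no cell had exactly 3 markers: 14 cells just outside the rule had 2 markers with a median of 2 marker UMIs, and the 5 cells just inside had 4 markers with a median of 23. At P0, 82 cells outside had 2 markers (median 2 UMIs) and the 7 cells with 3 markers had a median of 3 UMIs, while 57 of 118 members had all 7 markers (median 204 UMIs). At E13.5 the edge was gradual, with 52 cells with 2 markers (median 3 UMIs), 22 with 3 (4.5 UMIs), 14 with 4 (7.5 UMIs), 7 with 5 (17 UMIs), 13 with 6 (66 UMIs) and no cell with all 7. Per cell, the 7 markers took a median of 1485 CPM at E13.5 (240 to 27522), 6174 at E16.5 (428 to 34293) and 12532 at P0 (39.8 to 56575). These values describe the rule and test nothing.

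Among all members, 4 genes outside the rule were most frequent at E16.5. Sox10, Pax3, Kit and Ednrb were looked at because all 4 mark melanoblasts and the rule did not use them. At E16.5, 48 of 51 members had Sox10, 51 had Pax3, 47 had Kit and 45 had Ednrb. At P0 the numbers were 97, 95, 82 and 98 of 118, and at E13.5 they were 26, 29, 20 and 38 of 56. None of the 4 was found in 11, 0 and 8 members of E13.5, E16.5 and P0. The cells with 6 markers all had Sox10 at E13.5 (13 of 13), whereas 5 of the 22 cells with 3 markers did. Their median depths were 15351 and 5316 UMIs per cell, and these shares were not thinned. Sox10, Pax3 and Ednrb are also made by the Schwann lineage: the Schwann-lineage cells defined below had Sox10 in 68.1%, 94.3% and 84.7%, Pax3 in 46.0%, 61.3% and 41.8% and Ednrb in 75.5% and 92.5% at the embryonic stages and in 49 of 98 cells at P0. Kit was found in 8.59%, 3.77% and 2.04% of them, and in 35.7%, 92.2% and 69.5% of members. Endothelial cells had Sox10 in 2.02%, 1.63% and 0.752% and Kit in 21.2%, 28.5% and 12.8%.

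Clustering of each library without the rule genes placed the members together at E16.5 and P0. At E16.5, 48 of 51 members (94.1%) lay in 1 cluster of 53 cells led by Dct, Pmel, Ptgds, Mlana and Npy. At P0, 98 of 118 (83.1%) lay in 1 cluster of 103 cells led by Pmel, Dct, Ptgds, Mlana and Gpnmb, and 6, 4 and 3 others lay in follicle clusters led by Lhx2, by Tbx1 and by Krt79. At E13.5, 15 of 56 (26.8%) lay in a cluster of 134 cells that was led by the mast cell proteases Cpa3 and Cma1 as well as Dct and Pmel. Another 15 lay in a cluster of 221 cells with Sox10, Moxd1, Ednrb and Gfra3 of the Schwann lineage among its leading genes, 9 in an erythroid cluster led by Hbb-y, 6 in a keratinocyte cluster led by Krtdap and 4 in a macrophage cluster led by Pf4. At a finer resolution of 2, 32 of the 56 stood in 1 cluster of 167 cells. At E13.5 these genes did not bear out the label of melanoblasts for every member: 11 of 56 had none of Sox10, Pax3, Kit and Ednrb and 9 lay in the erythroid cluster.

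Krt5 and Krt14, the keratins of basal epidermis, were summed as the check of mixing. In the members they held 83.7 CPM at E13.5, then 892 and 2234 in the later stages. Endothelial cells of the same libraries, which do not make these keratins, held 63.8, 544 and 353 CPM, and keratinocytes 2016, 7221 and 7561. Keratin RNA was thus near the endothelial level at E13.5 and above it at E16.5 and P0. It was uneven between members: 0, 5 and 36 members had 1000 CPM or more, and the 36 at P0 had a median of 26478.5 UMIs, against 10000 over all P0 members. These 36 held 1211708 of the 2029448 UMIs of all P0 members. Most of the RNA behind each P0 level of the members thus came from them. The wider list of 10 keratinocyte genes was measured whole at every stage, with 393, 1794 and 6620 CPM in members. Erythroid RNA (7 globin genes) stood at 28103, 16782 and 1009 CPM in members, with 21, 2 and 1 members at 10000 CPM or more, and at 22269, 3297 and 670 CPM in endothelial cells. Fibroblast RNA (8 genes) stood at 2892, 4624 and 2289 CPM, with 1, 4 and 8 members at 10000 CPM or more. The 7 endothelial genes summed to 125, 55.3 and 48.8 CPM and the 6 immune genes to 154 CPM at E13.5 and 26.1 at P0; the rule itself put Cdh5 and Ptprc of these lists at 0.

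**Figure D1:**
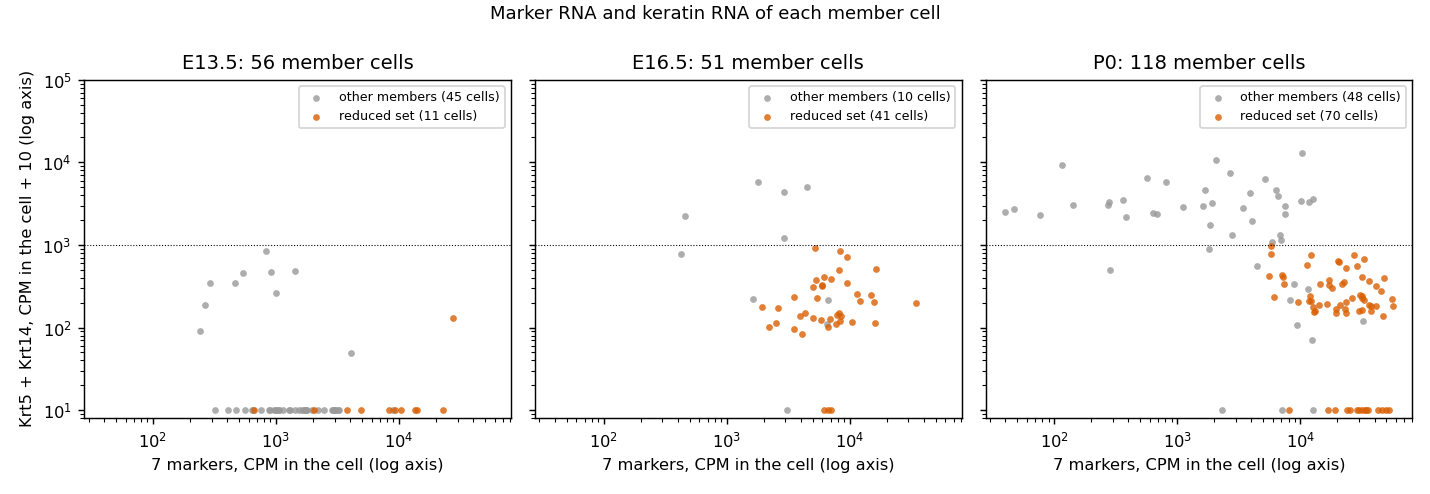
Each point is a member cell at the stage named above the panel, with the CPM of the 7 markers in that cell on the horizontal log axis and the CPM of Krt5 plus Krt14, after adding 10, on the vertical log axis. Orange cells are the reduced set, grey cells the other members, and the dotted line marks 1000 CPM of the keratins, above which lie 0, 5 and 36 members.

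A reduced set was therefore set beside the members, and it was chosen after the values and clusters had been seen. It held the members in the cluster of their library that was led by both Pmel and Dct, with Krt5 plus Krt14 under 1000 CPM and erythroid and fibroblast RNA each under 10000 CPM. This left 11 E13.5 cells, 41 E16.5 cells and 70 P0 cells, or 122 of 225, with 141198, 431807 and 633327 UMIs. Krt5 plus Krt14 then stood at 7.08, 239 and 306 CPM and the globins at 2344, 1105 and 298 CPM. All of the 11 E13.5 and 41 E16.5 cells had both Sox10 and Pax3, and at P0 65 of 70 had Sox10 and 63 had Pax3. Ednrb was found in 11, 36 and 64 of the reduced cells and Kit in 9, 38 and 51, so Ednrb was not most frequent at E16.5 here. The mast cell gene Cpa3, a leading gene of the E13.5 cluster, had 1 UMI in its 11 cells. Values of this set are descriptions of cells picked for high melanocyte and low other RNA. The part of keratin, globin and fibroblast RNA in the values of all members was not tested.

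The melanin genes themselves differed by stage, and Tyrp1 differed most. Tyrp1 had no UMI in the 56 members at E13.5, which allows up to 5.84 CPM, stood at 31.4 CPM at E16.5 (exact Poisson 95% interval 19.4 to 48.0) and at 380 CPM at P0 (354 to 408). The reduced set had 0, 46.3 and 960 CPM. Of its 21 UMIs at E16.5, 17 lay in 1 of the 51 members and the other 4 in 1 cell each, and without that cell, an alternative added after seeing the data, the level of Tyrp1 was 6.08 CPM. That cell had 10556 UMIs, 189 CPM of the 2 keratins and, at 34293 CPM, the highest summed marker level of its stage. At P0, 84 of 118 members had Tyrp1. No endothelial cell of any library had a Tyrp1 UMI. At P0, 4 of 98 Schwann-lineage cells, 12 of 1370 keratinocytes and 5 of 1165 fibroblasts did, as did 1 Schwann-lineage cell and 1 fibroblast at E16.5.

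Tyr, Dct, Pmel and Mlana were seen at every stage. Dct stood at 1508, 2335 and 3555 CPM in the members of E13.5, E16.5 and P0, and at 3647, 3004 and 8877 CPM in the reduced set. Pmel stood at 1417, 2465 and 3771 CPM in the members and at 3584, 3251 and 9239 CPM in the reduced set. Mlana stood at 325, 547 and 966 CPM, and at 559, 697 and 2274 CPM in the reduced set. For each of these 3 genes the P0 level was the highest in both sets. The order of E13.5 and E16.5 turned for Dct and Pmel when the set was reduced. Tyr moved otherwise, with 179, 230 and 144 CPM in the members and 418, 276 and 332 CPM in the reduced set, and in the reduced set the intervals of E13.5 (318 to 539) and P0 (288 to 380) overlapped. Mitf, the regulator, stood at 187, 344 and 210 CPM in the members and at 467, 456 and 472 CPM in the reduced set, where the 3 intervals overlapped. Slc45a2 stood at 123, 178 and 155 CPM, and at 227, 220 and 371 CPM in the reduced set.

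In the other cells of the libraries Dct stood at 2.78, 2.85 and 15.6 CPM and Pmel at 2.92 and 4.56 CPM in the embryos. The 7 markers together stood at 11.3, 14.1 and 43.2 CPM in these other cells, highest at P0. The other cells include those left out for Cdh5 or Ptprc. The highest marker level in any 1 of the other cells was 2284, 12380 and 21731 CPM. Dct RNA was infrequent in other cell types at P0. With each cell thinned to 3500 UMIs, 2.63% of endothelial cells and 3.58% of keratinocytes had a Dct UMI. Before thinning 9.40% and 10.4% did, at median depths of 10031 and 9311 UMIs. After thinning 89.8% of members had it (median depth 10000 UMIs before), a share that the rule raised since it used Dct. Of the 111 P0 cells chosen by the other 6 markers, 99.1% had Dct without thinning. Pmel shares 837 bases with Cdk2, which lies on the other strand, and strand use in the counting is not given in the sources used here. Cdk2, looked at for that reason after its values were seen, stood at 181, 220 and 255 CPM in members and at 52.6, 40.2 and 38.5 CPM in other cells. The shared bases hold the starts of both genes while the libraries read 3′ ends, and the part of the overlap in these levels was not tested.

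**Figure D2:**
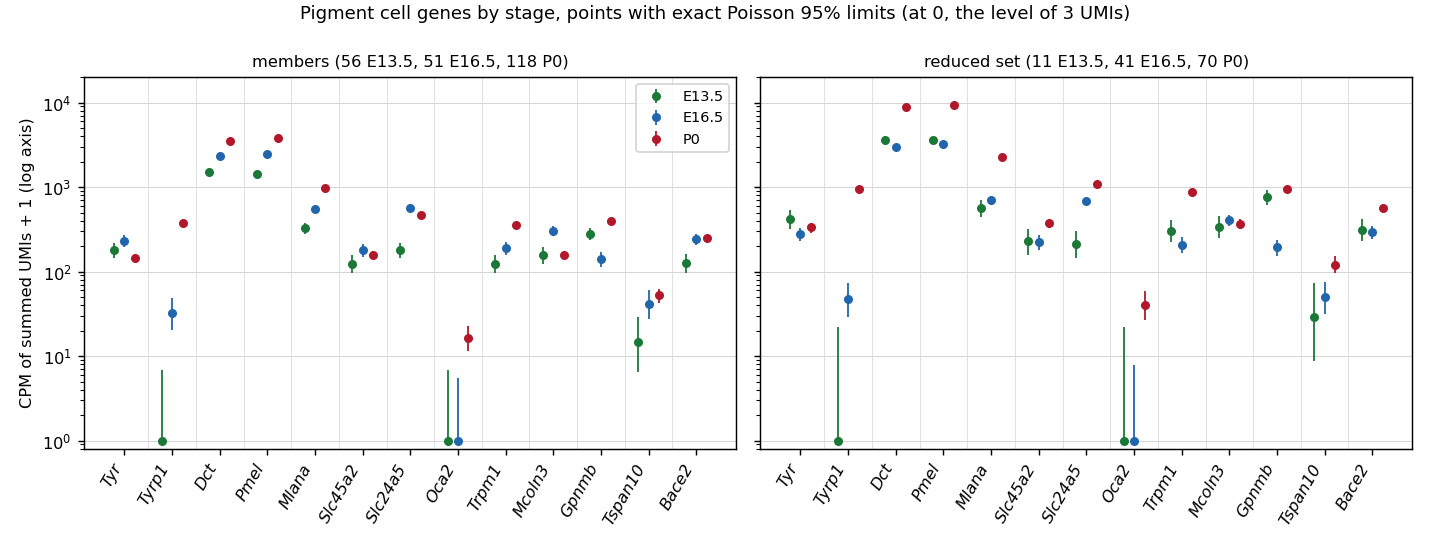
CPM of summed UMIs plus 1, on a log axis, of 13 pigment cell genes in all members (left) and in the reduced set (right), with 1 colour per stage and bars for exact Poisson 95% limits, or up to the level of 3 UMIs at 0. Tyrp1 is at 0 at E13.5 and at 380 CPM in the members at P0, and Oca2 is seen at P0 alone.

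To give each marker a value that the rule did not fix, cells were chosen by at least 3 of the other 6 markers. Tyrp1 was then found in 0 of 56 cells at E13.5, which allows a share of cells with a UMI of up to 5.36% (3 cells) and sets no limit on cells expressing it, in 5 of 51 (9.80%) at E16.5 and in 83 of 117 (70.9%, 61.8 to 79.0) at P0. Pmel was found in 94.3%, 100% and 96.5% and Dct in 76.3%, 100% and 99.1%. Tyr was found in 52.9% (38.5 to 67.1) of E13.5 cells, 92.2% of E16.5 cells and 72.9% of P0 cells. Mitf and Slc45a2 had the same order, with 55.6%, 94.1% and 80.9% for Mitf and 40.8%, 80.4% and 77.8% for Slc45a2. Mlana alone of the 7 beside Tyrp1 had its highest share at P0, with 69.8%, 88.2% and 98.2%. Depth differs between these cells and the shares were not thinned.

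**Figure D3:**
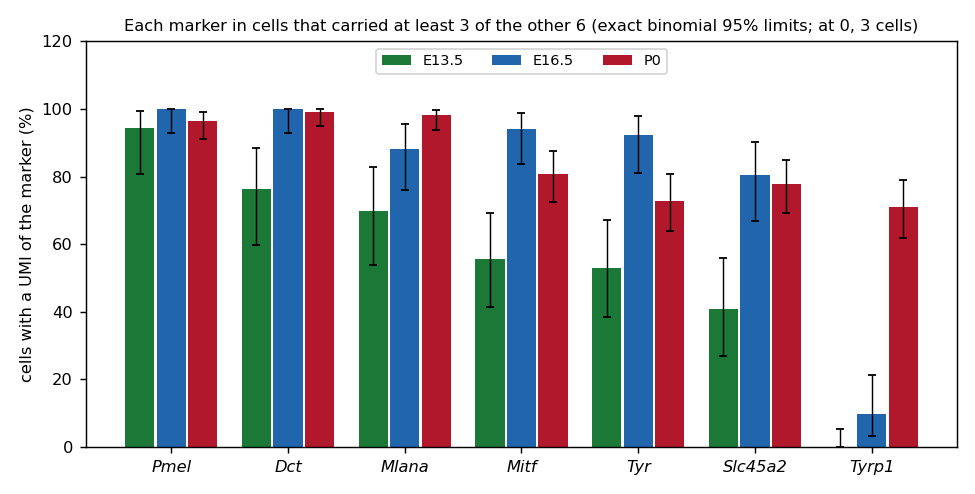
Bars give the percent of cells with a UMI of each marker among cells with at least 3 of the other 6, by stage, with exact binomial 95% limits (the share of 3 cells where none had it). Tyrp1 is found in 0 of 56, 5 of 51 and 83 of 117 cells, whereas Pmel is found in 94.3%, 100% and 96.5%.

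Trpm1, Mcoln3 and Slc24a5 of the pigment organelle, which the rule did not use, were higher in members than in other cells at all stages. Differences are given as log2((CPM + 10)/(CPM + 10)) for genes with a mean of both CPM of at least 50, and a difference of 1 or more is called. Members against the other cells of their library gave a call for 3.64%, 11.8% and 8.70% of the genes tested, with 1.73%, 4.55% and 2.01% called higher. A gene can pass this filter through the group where it is high and is then bound to differ, so counts among the genes tested are descriptions. Of the 11 channels, transporters and receptors of melanosomes, 1 is a rule gene and these 3 of the others passed the filter. Trpm1, a cation channel, stood at 123, 187 and 354 CPM against 0.682, 1.48 and 5.18 CPM in other cells. Mcoln3, an endolysosomal channel, stood at 156, 305 and 156 CPM against 1.74, 0.915 and 0.763. Slc24a5, the melanosome ion exchanger, stood at 179, 567 and 464 CPM against 75.9, 40.6 and 40.1, and it shares 4050 bases with Myef2 on the other strand, where both genes end. Myef2, looked at after its values were seen, stood at 125, 76.3 and 46.8 CPM in members and at 127, 68.1 and 54.4 CPM in other cells. Oca2, a melanosome chloride channel, was under the filter, with no UMI at E13.5 and E16.5 and 15.3 CPM in 14 of 118 members at P0. Gpr143, the melanosome receptor, was under the filter too, with 17.5, 41.9 and 27.1 CPM in members and 0.170, 0.427 and 0.628 CPM in other cells.

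Among 27 genes of melanosome assembly and transport, 2 of 6, 3 of 7 and 3 of 5 tested were higher in the members and none was lower. Of all genes tested, 1.73%, 4.55% and 2.01% were higher and 1.92%, 7.28% and 6.69% lower. A gene can pass the filter through the members where it is high, so these counts are descriptions. Gpnmb, a relative of Pmel, stood at 280, 139 and 396 CPM in members and at 758, 192 and 952 CPM in the reduced set, lowest at E16.5 in both. At E13.5 it was seen in 20 of 56 members and 10 of the 11 reduced ones. Bace2, the protease that cuts Pmel, stood at 125, 241 and 247 CPM in members. Tspan10 stood at 13.6, 40.4 and 51.2 CPM there. In the reduced set at P0 Bace2 stood at 579 CPM in cells with Tyrp1 and 476 CPM in those without. Tspan10 stood at 122 and 104 CPM in these cells. Rab27a, Mlph and Myo5a, the complex that tethers melanosomes to actin, stood in members at 35.0, 38.9 and 38.4 CPM, at 48.7, 12.0 and 33.5 CPM and at 68.1, 82.3 and 34.0 CPM. In the reduced P0 cells with and without Tyrp1, Rab27a stood at 106 and 74.4 CPM and Myo5a at 74.2 and 29.7 CPM. The values without Tyrp1 rest on 5 and 2 UMIs. Mlph in the reduced set stood at 135, 18.5 and 72.6 CPM, so that it too was lowest at E16.5. Of the 19 lysosome genes, 0 of 11, 2 of 11 and 0 of 11 tested were called higher in members and 4 of 11, 5 of 11 and 6 of 12 in the reduced set, where 9.65%, 6.79% and 7.54% of all genes tested were called higher and 7.55%, 8.35% and 9.47% lower (17.2%, 15.1% and 17.0% in either direction). Lamp1 stood at 374, 527 and 421 CPM in members and Ctsd at 216, 223 and 284 CPM.

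Between stages, calls among the members were most frequent from E13.5 to P0. E16.5 against E13.5 gave a call for 5.78% of genes (2.45% higher, 3.33% lower), P0 against E16.5 for 9.74% (3.39% higher, 6.35% lower) and P0 against E13.5 for 17.7% (5.18% higher, 12.5% lower). The median over all genes was -0.09, -0.14 and -0.27 in these comparisons. With that median set to 0, the share of called genes that were higher went from 34.8% to 47.4% for P0 against E16.5 and from 29.2% to 55.9% for P0 against E13.5. Of the 3 melanosome channel genes tested in all members, 1 was higher at E16.5 than at E13.5. None was called there from E16.5 to P0 and 2 were higher at P0 than at E13.5. In all members Slc24a5 was higher at E16.5 by 1.61 (1.29 to 1.94) on the log2 scale. Trpm1 was higher there at P0 than at E13.5 by 1.46 (1.11 to 1.82). The reduced set at P0 held more of each gene than all P0 members did. Trpm1 stood at 926 CPM in its cells with Tyrp1 and at 521 CPM in those without. Slc24a5 stood at 1141 and 625 CPM and Mcoln3 at 311 and 803 CPM. The calls from E16.5 to P0 thus describe all members only. Of the 56 members at E13.5, 41 lay outside the cluster led by Dct and Pmel. Their part in these and the following differences from E13.5 was not tested. Mcoln3 differed by 0.93 between E16.5 and E13.5 and by -0.93 between P0 and E16.5, both short of a call.

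The transcription factors of the lineage were compared next. Of 15 in the list, 3 of 7, 5 of 8 and 3 of 6 tested were higher in members than in other cells, and 0, 1 and 1 were lower. Of all genes tested, 1.73%, 4.55% and 2.01% were higher and 1.92%, 7.28% and 6.69% lower. These counts too are descriptions, since a gene can pass the filter through the members. Sox10 stood at 148, 248 and 152 CPM in the members and at 297, 327 and 330 CPM in the reduced set, where its intervals overlapped at all stages. Pax3 was highest at E16.5 in both sets, with 162, 416 and 128 CPM in the members and 368, 514 and 272 CPM in the reduced set. In the members it was higher at E16.5 than at E13.5 by 1.31 (0.97 to 1.66). It was lower there at P0 than at E16.5, with a log2 difference of -1.63 (-1.87 to -1.39). Both gaps were smaller in the reduced set and short of a call there. Tfap2a and Tfap2b, the AP-2 factors, stood at 72.0, 160 and 115 CPM and at 64.2, 177 and 122 CPM. Ets1 stood at 103, 168 and 47.3 CPM and Zeb2 at 189, 287 and 82.8 CPM, both highest at E16.5.

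Id3, an inhibitor of basic helix-loop-helix factors, went the other way in time. It stood at 195, 112 and 339 CPM in the members and at 49.6, 60.2 and 502 CPM in the reduced set. It was the transcription factor called higher at P0 than at E16.5, by 1.51 (1.19 to 1.84), beside 4 of 8 that were lower, where 3.39% of all genes were higher and 6.35% lower and their median was -0.14. In other cells Id3 stood at 330, 322 and 220 CPM. Irf4, known for its part in human pigmentation, had no UMI in members at E13.5 and E16.5 and stood at 6.41 CPM in 12 of 118 members at P0.

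Receptors of the members were led by the endothelin receptor and Kit. Ednrb stood at 292, 358 and 159 CPM in members and at 38.0, 22.8 and 10.5 CPM in other cells, and Kit at 117, 254 and 81.3 CPM against 8.33, 8.60 and 2.96 CPM. Kit was higher at E16.5 than at E13.5 by 1.06 (0.66 to 1.47) and lower at P0 than at E16.5 by a log2 difference of -1.53 (-1.82 to -1.24). In the reduced set Kit stood at 297, 327 and 182 CPM and Ednrb at 701, 438 and 382 CPM. Kit thus differed less between E13.5 and E16.5 there than in all members, and Ednrb was highest at E13.5. The gap in Kit between E16.5 and P0 was also smaller in the reduced set and short of a call. Mc1r, the melanocortin receptor that sets the type of melanin, stood at 9.73, 68.8 and 44.8 CPM. It was found in 5 of 56 members at E13.5, 27 of 51 at E16.5 and 47 of the 118 P0 members. Ngfr, the neurotrophin receptor of early neural crest cells, stood at 89.5, 10.5 and 1.97 CPM in the members and at 7.08, 4.63 and 1.58 CPM in the reduced set. Over the 17 receptors, 2 of 5, 2 of 6 and 1 of 5 tested were higher in members than in other cells, where 1.73%, 4.55% and 2.01% of all genes were. A gene such as Kit can pass the filter through the members where it is high, so these counts are descriptions. The ligand Kitl stood at 11.7, 37.4 and 12.8 CPM in members and at 22.2, 123 and 25.2 CPM in other cells.

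The 3 classical cadherins measured differed by stage. Cdh1, the E-cadherin of epidermis, stood at 31.1, 130 and 86.7 CPM in the members and at 63.7, 171 and 85.3 CPM in the reduced set. In the members Cdh1 was higher at E16.5 than at E13.5 by 1.77 (1.14 to 2.40) and at P0 than at E13.5 by 1.23 (0.64 to 1.83). In the reduced set the gap between P0 and E13.5 was short of a call, while that between E16.5 and E13.5 stayed past 1. Cdh3, the P-cadherin of the hair follicle, stood at 17.5, 38.9 and 94.6 CPM, and it was higher at P0 than at E16.5 by 1.10 (0.60 to 1.60). Cdh2, the N-cadherin of mesenchyme and nerve, stood at 56.4 CPM at E13.5 and 3.94 CPM at P0. In the reduced set Cdh3 stood at 28.3, 32.4 and 85.3 CPM and Cdh2 at 70.8, 18.5 and 7.89 CPM, in the same order. Keratinocytes also make Cdh1 and Cdh3, and Krt5 plus Krt14 stood at 83.7, 892 and 2234 CPM in the members and at 7.08, 239 and 306 CPM in the reduced set. The part of keratinocyte RNA in the cadherin levels was not tested. The integrin Itga4 stood at 113, 89.8 and 6.90 CPM and at 255, 120 and 11.1 CPM in the reduced set. Itgb1 stood at 237, 248 and 128 CPM. Of 17 adhesion genes, 3 of 10 tested were higher and 4 lower at P0 than at E13.5, where 5.18% and 12.5% of all genes were. A gene can pass the filter through the stage where it is high, so these counts are descriptions.

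**Figure D4:**
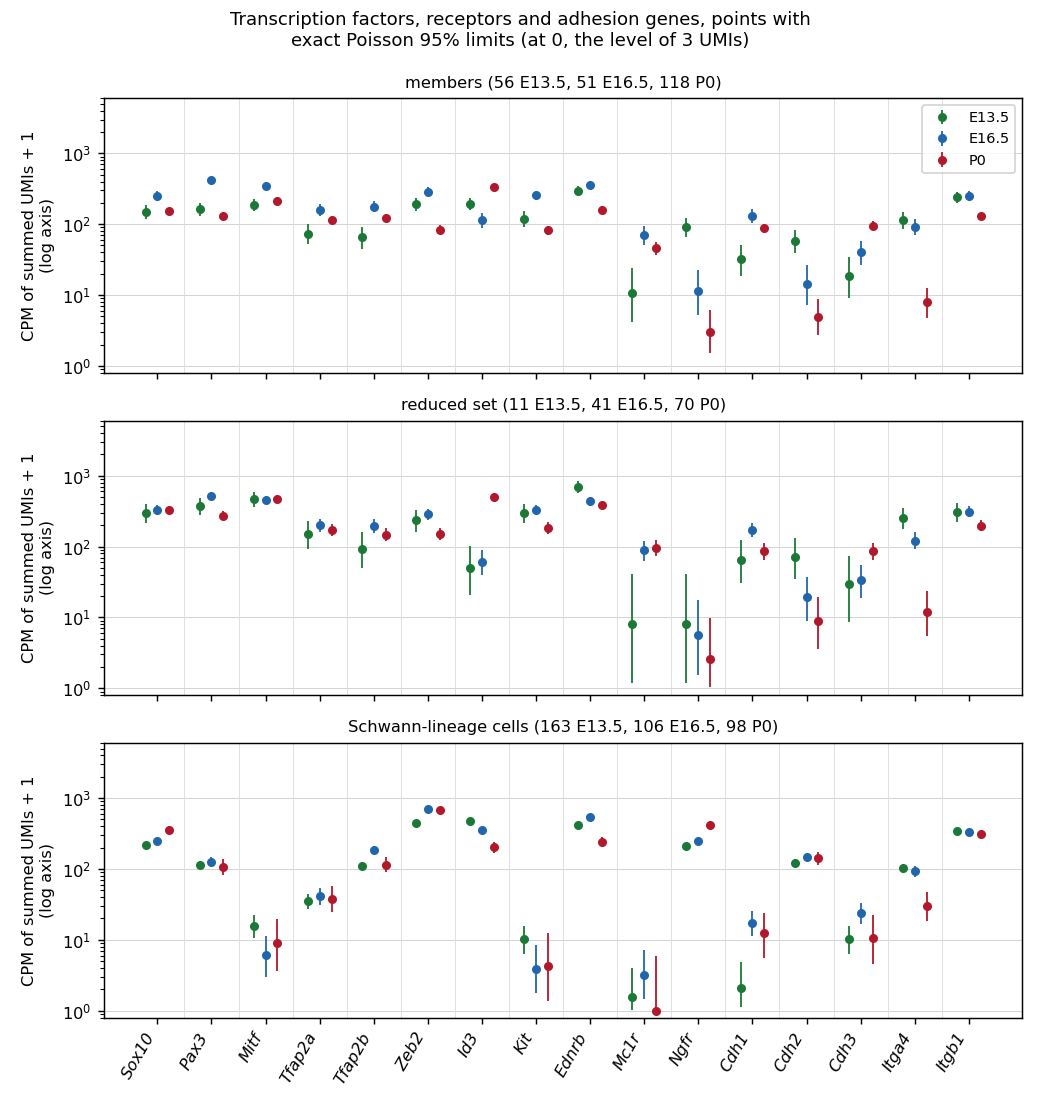
CPM of summed UMIs plus 1, on log axes, of transcription factors, receptors and adhesion genes in all members (top), the reduced set (middle) and Schwann-lineage cells (bottom), with 1 colour per stage and exact Poisson 95% limits. Pax3 and Kit are highest at E16.5 in the members, Itga4 is lowest at P0, and Kit and Mitf stand at 14.7 CPM or less in the Schwann-lineage cells.

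Ptgds, the prostaglandin D synthase, had the highest log2 difference from other cells at E16.5 (7.49) and P0 (6.75) and the second highest at E13.5 (4.32). It stood at 290, 2458 and 2023 CPM in members and at 588, 3182 and 4609 CPM in the reduced set, against 5.02, 3.77 and 8.93 CPM in other cells. It was found in 25 of 56, 51 of 51 and 111 of 118 members. It was higher at E16.5 than at E13.5 by 3.04 (2.81 to 3.28). Npy, neuropeptide Y, stood at 136, 441 and 336 CPM and at 106, 595 and 698 CPM in the reduced set, where 2 of 11, 38 of 41 and 59 of 70 cells had it. Syngr1 and Syt4, proteins of synaptic vesicles, were among the 10 highest at E16.5 and P0. Syngr1 stood at 202, 323 and 295 CPM against 7.61, 4.30 and 5.34 CPM in other cells, and Syt4 at 87.6, 259 and 146 CPM against 5.45, 0.702 and 0.763 CPM.

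Some leading genes were seen in members of E16.5 and P0 and hardly at E13.5. Tm4sf1 stood at 11.7, 257 and 409 CPM in members, and in the reduced set it had no UMI in 11 cells at E13.5 and was found in 36 of 41 and 69 of 70 cells thereafter. It was higher at E16.5 than at E13.5 by 3.62 (2.88 to 4.26). In endothelial cells Tm4sf1 stood at 121, 295 and 537 CPM. Cpne4, a copine, had 1 UMI in E13.5 members and stood at 130 and 70.5 CPM at E16.5 and P0, against 0.265, 0.122 and 0.381 CPM in other cells. Gsta1, a glutathione transferase, stood at 17.5, 61.3 and 117 CPM, and at 28.3, 64.8 and 246 CPM in the reduced set. Phlda1 stood at 739, 1185 and 634 CPM against 71.8, 73.9 and 115 CPM in other cells, and Mgll, a lipase, at 138, 154 and 141 CPM against 5.15, 19.7 and 33.2.

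Other genes were high at E13.5 in members and other cells alike. Hmga2, a chromatin protein of embryonic cells, stood at 304, 35.9 and 17.7 CPM in members and at 286, 36.5 and 9.78 CPM in other cells. Mdk, the growth factor midkine, stood at 852, 123 and 30.1 CPM against 1128, 291 and 89.7 CPM. Nnat, an imprinted gene, stood at 237 CPM at E13.5 and 2.46 CPM at P0 in members, where other cells had 440 and 10.7. Cdkn1c, an inhibitor of the cell cycle, stood at 891, 283 and 45.3 CPM in the members, at 234, 120 and 28.4 CPM in the reduced set and at 2372, 1357 and 411 CPM in other cells, and it was lower than in other cells at each stage, with log2 differences of -1.40, -2.22 and -2.93. The genes highest at P0 against E13.5 among all members, Lgals7, Krt17, Ly6d, Fxyd3 and Krt15, are epidermal. Lgals7 stood at 15.6 and 2849 CPM at these stages in the members and at 0 and 521 CPM in the reduced set. The lowest were the globins Hbb-y, with 3147 CPM at E13.5 and no UMI at P0, and Hbb-bt. Keratin and globin RNA moved with these calls, and their part in them was not tested.

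**Figure D5:**
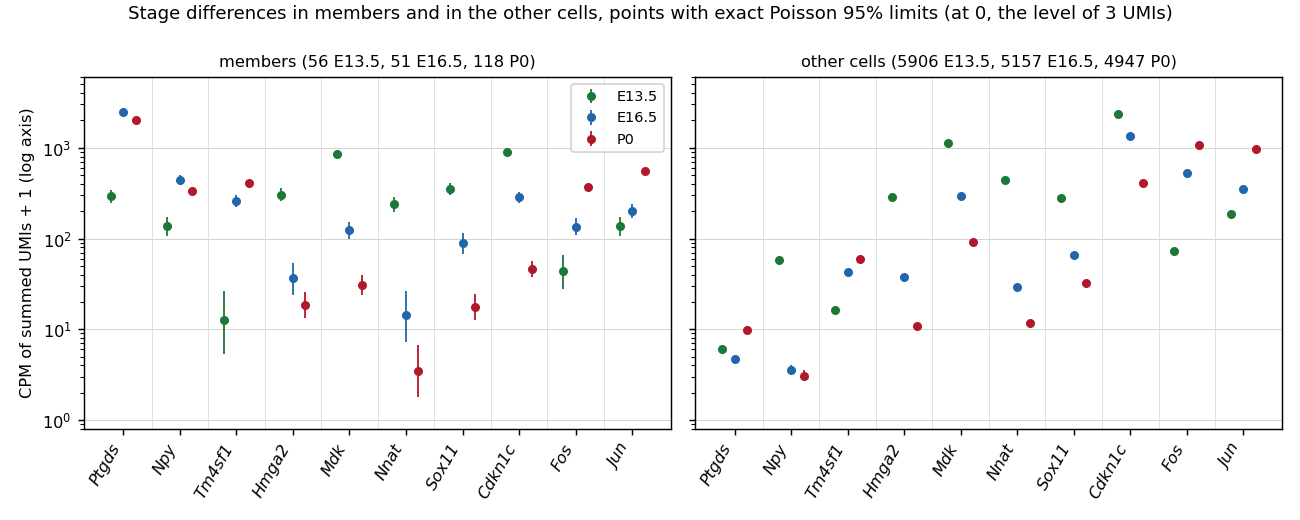
CPM of summed UMIs plus 1, on a log axis, of 10 genes in all members (left) and in the other cells of the same libraries (right), by stage with exact Poisson 95% limits. Ptgds is at 290 to 2458 CPM in members and at 3.77 to 8.93 CPM in other cells, while Hmga2 is at 304, 35.9 and 17.7 CPM in members and at 286, 36.5 and 9.78 CPM in other cells.

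Schwann-lineage cells, which share their origin with melanoblasts, were taken as cells with at least 3 of 8 Schwann markers, under 3 of the 7 melanocyte markers and none of Cdh5 and Ptprc. There were 163, 106 and 98 of them. Members against these cells gave a call for 4.25%, 11.2% and 17.9% of genes, with 1.54%, 3.74% and 4.16% higher and 2.71%, 7.48% and 13.7% lower. The genes of both rules are left out of these counts. Sox10 is the factor common to both: Schwann-lineage cells had 220, 248 and 353 CPM, and members differed from them by -0.54, 0.00 and -1.16. The reduced set differed in Sox10 by 0.42, 0.39 and -0.10, so the P0 call was lost and the E13.5 direction turned. Pax3 was found in both as well, with 113, 125 and 106 CPM in Schwann-lineage cells, and members were higher at E16.5 by 1.66 (1.40 to 1.92). Ednrb stood at 413, 546 and 237 CPM there, and members differed from them by -0.49, -0.60 and -0.55. The reduced set differed in Ednrb by 0.75, -0.31 and 0.67, so the direction turned at E13.5 and P0. Kit was nearly absent from Schwann-lineage cells, at 9.25, 2.87 and 3.23 CPM, and so was Ptgds, at 0.544, 2.87 and 8.06 CPM.

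Of the Schwann list of 17 genes 5, 7 and 7 passed the filter, which the Schwann-lineage cells can decide, so no count is read from them. Gap43 stood at 1179, 627 and 327 CPM in Schwann-lineage cells and at 107, 12.0 and 0.493 CPM in members. Ngfr stood at 208, 245 and 419 CPM and Zeb2 at 442, 707 and 684 CPM in Schwann-lineage cells. Zeb2 in members was lower by a log2 difference of -1.18, -1.27 and -2.90, and the reduced set differed in Zeb2 by -0.89, -1.27 and -2.12. Cdh2 stood at 122, 148 and 142 CPM in Schwann-lineage cells, steady where the members differed by stage. Fabp7, a gene of Schwann cell precursors, was still seen in the members, at 109, 147 and 39.4 CPM against 572, 556 and 219 CPM in Schwann-lineage cells. Fabp7 in the reduced set stood at 42.5, 190 and 93.2 CPM and was found in 4 of 11, 30 of 41 and 36 of 70 cells. Npy at E13.5 was higher in Schwann-lineage cells, at 275 CPM, than in members, and at P0 it was lower there, at 21.0 CPM.

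Members carried RNA of dividing cells at every stage. With each cell thinned to 3500 UMIs, at least 2 UMIs of 27 genes of the G2 and M phases were found in 56 of 56 members at E13.5 (100%), 38 of 51 at E16.5 (74.5%, 60.4 to 85.7) and 71 of 118 at P0 (60.2%, 50.7 to 69.1). In the other cells the shares were 81.0%, 66.4% and 42.5%. Without thinning they were 100%, 94.1% and 78.0% in members. The reduced set had 100%, 70.7% and 52.9%. The summed level of these genes was 4128, 3195 and 2638 CPM in the members and 6027, 3166 and 3254 CPM in the reduced set, against 2956, 2894 and 2168 CPM in other cells. None of the 23, 19 and 15 genes tested was called higher in members, while 11 of 26, 0 of 19 and 1 of 17 were in the reduced set, where 1.73%, 4.55% and 2.01% of all genes were higher in members and 9.65%, 6.79% and 7.54% in the reduced set. The S phase list of 25 genes summed to 2074, 2191 and 1313 CPM. Free RNA adds to such counts in every cell, so a share is no count of dividing cells.

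No survival gene was called in any comparison of members with other cells or between stages, out of 4 or 5 tested each time, where 3.64% to 17.7% of all genes were called; so few genes say nothing about the list. Bcl2, on which melanocytes depend, stood at 68.1, 106 and 125 CPM in members and at 51.1, 79.4 and 91.6 CPM in other cells. Of 17 genes known to respond to tissue dissociation, 1 of 5, 4 of 7 and 6 of 12 tested were called lower in members than in other cells and none higher, where 1.92%, 7.28% and 6.69% of all genes were lower. A gene can pass the filter through the other cells where it is high, so these counts are descriptions. Fos stood at 42.8, 135 and 367 CPM in members and at 72.0, 528 and 1063 CPM in other cells, and Jun at 136, 202 and 559 CPM against 183, 347 and 974 CPM. Hspa1a stood at 3.89, 5.98 and 216 CPM in members and at 1.74, 5.55 and 250 CPM in other cells. Of this list 6 of 9 tested were higher in members at P0 than at E16.5, where 3.39% of all genes were. The digestion differed between these stages, and its part was not tested.

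Within P0, the reduced cells were also set apart by Tyrp1, a split chosen after the data were seen. Between these cells 12.6% of the genes tested were called, 5.51% higher and 7.13% lower with Tyrp1. The rule genes were left out of these counts. The genes named here are a choice, and not all of them were called. Tyrp1 was found in 59 cells and not in 11, with a median of 7250 and 5943 UMIs per cell. The other 6 markers summed to 22307 CPM in cells with Tyrp1 and 15304 CPM in those without. Pmel stood at 9680 and 5518 CPM, Trpm1 at 926 and 521 CPM and Slc24a5 at 1141 and 625 CPM. Their log2 differences were 0.81, 0.82 and 0.86, each under 1. The 10 highest with Tyrp1 included Lhx2, Ucp2 and Sostdc1, which were also among the leading genes of P0 follicle clusters. Lhx2 stood at 101 and 0 CPM, Ucp2 at 127 and 14.9 CPM and Sostdc1 at 111 and 14.9 CPM. The part of follicle RNA in this split was not tested. Mitf did not separate them, with 475 and 446 CPM, nor did Kit, with 180 and 193 CPM. Sox10 was higher in cells without Tyrp1, at 654 against 291 CPM, as were Mcoln3, at 803 against 311 CPM, and the surface protein Cd200, at 565 against 150 CPM. All 3 were called. At least 2 thinned UMIs of the G2 and M genes were found in 33 of 59 and 4 of 11. The smaller group held 67236 UMIs, and 1 UMI in it corresponds to 14.9 CPM, so low genes could not be compared.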

How the data were processed

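Droplet-based 3′ single-cell RNA sequencing was analysed for 3 libraries, 1 per stage. Per the study's methods, the authors counted UMIs with Cell Ranger 2.2.0 on mm10 and required a gene to occur in 3 or more cells and a cell to pass a minimum of genes; the table holds more cells than the study states it kept. The deposited values are the natural log of 1 plus UMIs per 10000 in a cell. UMIs were recovered as whole numbers for all 48197283 values above 0 (tolerance 0.001), for 19165 genes. The scale was found from the values.

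UMIs were summed over cells and given as CPM with exact Poisson intervals, and shares with exact binomial intervals (95%). Log2 differences used 10 added to each CPM and genes with a mean of at least 50 CPM; 9 rule genes were left out. This was tested on simulated data. Libraries were clustered alone in scanpy 1.11.5 (2000 variable genes, 30 components, 15 neighbours, Leiden resolution 1) under Python 3.11.15. No doublet caller was run and none were removed; RNA of other cell classes and depth are given instead. Named genes are those of 14 fixed lists and the 10 highest and 10 lowest per comparison with at least 20 UMIs in the higher group; others are said to be chosen after their values were seen. Members and lists were chosen with earlier results of these data known. Of 391 genes looked up, 389 matched GENCODE by symbol. Some genes of the lists are not reported here.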

Additional observations from a re-analysis of the deposited data

How the results depend on the processing

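The number of members stayed within 1.5 times at each stage without the condition on Cdh5 and Ptprc, after thinning, without Mitf, without keratin-rich members and without the deepest cells. It became 108 (E13.5) and 200 (P0) with 2 markers, 34 (E13.5) with 4 markers, 27 (E13.5) and 69 (P0) with at least 2500 genes per cell, and 11 (E13.5) and 70 (P0) in the reduced set, which was added after seeing the data.

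Genes called in members against other cells, 114, 351 and 229 at E13.5, E16.5 and P0, became 213 (E13.5) with 4 markers, 185 (E13.5) with at least 2500 genes, 423 (P0) without members at 1000 CPM of keratins, 404 (P0) without cells above the 95th percentile of depth, 370 (P0) with each cell given the same weight, and 565 (E13.5) and 469 (P0) in the reduced set; against Schwann-lineage cells that set gave 456 for 135 at E13.5. With 50 added to each CPM the counts were 60 (other cells, E13.5), 89, 133 and 263 (between stages, for 177, 267 and 510), and 74 and 224 (Schwann-lineage, E13.5 and E16.5, for 135 and 348). A mean of 20 CPM gave 222, 646 and 435, then 404, 571 and 995, then 309, 666 and 1000 (for 508 at P0), and no filter gave 374, 973 and 683, then 761, 842 and 1575, then 510, 989 and 1484. Adding 1 and setting the median difference to 0 kept all 9 counts within 1.5 times. Giving each cell the same weight moved the share of higher calls from 23.1% to 37.0% for members against other cells at P0.

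The cycling share became 94.1% (E16.5) and 78.0% (P0) without thinning, 92.2% and 78.8% with 1 UMI, and 49.2% (P0) with 3 UMIs. At resolution 2 the leading cluster held 57.1% (E13.5) and 61.0% (P0) of members.

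Against Schwann-lineage cells at P0, Krt17, Krt5 and Krt14 turned to -1.22, -0.41 and -0.92 without keratin-rich members, and Krt17, Lgals7, Krt5 and Krt14 to -1.61, -0.11, -0.48 and -0.92 in the reduced set. Krt17 at E16.5 against E13.5 turned to -0.42 without the deepest cells. In the reduced set Fabp7 and Meg3 at P0 against E13.5 turned to 0.97 and 0.14. The cause was not tested beyond the cells each setting leaves out. No paired analysis was possible because each stage has 1 library, and for the same reason no replicate could be left out. Depth limits the 11 cells at E13.5 most, where 3 UMIs make 21.2 CPM.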
